A study of Arabidopsis thaliana with 16 samples.

Results

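The transcripts described here are 7 Arabidopsis mRNAs whose translation is known to be controlled by an upstream open reading frame (uORF) in a long 5' UTR. They are the 5 group S1 bZIP transcription factor genes bZIP1 (AT5G49450), bZIP2 (AT2G18160), bZIP11 (AT4G34590), bZIP44 (AT1G75390) and bZIP53 (AT3G62420), and the S-adenosylmethionine decarboxylase genes SAMDC1 (AT3G02470) and SAMDC2 (AT5G15950). They were chosen by locus, out of 27444 protein-coding genes of the annotation, for this type of control and not for a value measured here. The choice was made with earlier results of these data known. Of the 7, 5 were listed in the tables of RNA secondary structure, which held 10637 genes. bZIP11 and bZIP44 were not listed there, so only their sequences and protein protected sites are described.

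All libraries came from rosette leaves of 4-week-old plants of UBQ10:NTF/ACT2p:BirA in the Columbia-0 ecotype, either control-treated or salt-treated. Salt-treated plants were watered with NaCl raised in steps and then held. The transgenes put a biotin tag on the envelope of nuclei, and the UBQ10 promoter is active broadly, so nuclei of many leaf cell types were collected together. Formaldehyde-crosslinked nuclei were purified, in both conditions, in a buffer that contains the polyamines spermidine and spermine, and their RNA was digested with a double-strand-specific RNase (dsRNase) or a single-strand-specific RNase (ssRNase), with or without bound proteins, to give 16 libraries from 2 replicates per condition. The study found a marker of the endoplasmic reticulum in the purified nuclei, so the RNA was mainly but not only nuclear, and translation itself was not measured. Of the marker genes checked, 4 of 4 leaf genes were listed in the structure tables, and 0 of 3 root genes and 0 of 2 pollen genes were listed there or held a protein protected site. Of 27444 protein-coding genes, 38.3% were listed there and 65.6% held no such site, so the absence of these few genes has little weight.

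A uORF is a short reading frame between the 5' end of an mRNA and the start codon of the main protein. Scanning ribosomes meet it first, and where its peptide stalls the ribosome that made it, fewer ribosomes reach the main start codon. In the S1 bZIP mRNAs this happens when sucrose is high, through a peptide called the sucrose control peptide. S1 bZIP proteins pair with group C bZIP proteins and act in the response to low energy and in amino acid metabolism. SAMDC makes the decarboxylated S-adenosylmethionine from which spermidine and spermine are built. Its mRNAs carry a tiny uORF that overlaps a long one, and the long one holds back translation when polyamines are abundant.

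Each of the 7 mRNAs held a uORF of 25 codons or more, defined here as the longest frame that opens with ATG and closes before the main start codon. In bZIP1 it had 25 codons at nt 229 to 306 of a 5' UTR of 316 nt and ended 10 nt before the main start codon. In bZIP2 it had 41 codons at nt 201 to 326 of 439 nt, and in bZIP53 28 codons at nt 298 to 384 of 566 nt. In bZIP11 it had 42 codons in a 5' UTR of 588 nt, and in bZIP44 41 codons in 526 nt. The long uORFs of SAMDC1 and SAMDC2 both had 52 codons, at nt 302 to 460 of 614 nt and at nt 274 to 432 of 550 nt. The uORF of SAMDC1 was split by an intron, whereas that of SAMDC2 lay in 1 exon. The spacers from the uORF to the main start codon ranged from 10 nt in bZIP1 to 222 nt in bZIP11. For comparison, 16.5% of 10003 coding genes in the structure tables had a 5' UTR of 300 nt or longer, 46.5% had 1 or more upstream ATGs, and 11.6% had a uORF of at least 25 codons. SAMDC2 had 14 upstream ATGs, and the others had 3 to 5.

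The last 30 nt of each bZIP uORF, stop codon included, are given because they encode the end of the control peptide. Each lies in the 5' UTR of its gene and is written 5' to 3' on the strand of the gene, and capitals mark the 11 bases shared by all 5.
bZIP1: attCTtcAtTggtttTAcgttaTcTCtTgA
bZIP2: ttcCTctAcTggtttTAcaacgTtTCaTgA
bZIP11: ttcCTttAcTggcttTActatgTcTCaTgA
bZIP44: tttCTctAcTggttcTAtgtttTcTCaTaA
bZIP53: tacCTctAcTacaccTAcgtttTcTCaTgA
On TAIR10.1 these stretches are at chr5:20052105-20052134 on the plus strand for bZIP1, chr2:7898917-7898946 on the minus strand for bZIP2, chr4:16522197-16522226 on the plus strand for bZIP11, chr1:28292051-28292080 on the plus strand for bZIP44 and chr3:23092467-23092496 on the minus strand for bZIP53. Over the last 25 codons before the stop codon, bZIP2 and bZIP44 encoded the same residue at 21 positions, bZIP2 and bZIP11 at 20, and bZIP11 and bZIP44 at 20. bZIP53 shared 10 to 15 with the others. bZIP1 was the most distant, with 8 to 10 shared positions. Only 7 positions were the same in all 5.

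In the SAMDC mRNAs the start of the long uORF is the point where both frames meet, and 30 nt around it are shown with the ATG of the tiny frame and then the ATG of the long frame in capitals.
SAMDC1: aaagcgtgaATGagattATGatggagtcga
SAMDC2: aaagcgtgaATGagattATGatggaatcga
They lie in the 5' UTRs at chr3:509798-509827 and chr5:5206412-5206441, both on the plus strand. The tiny frame had 3 codons in both mRNAs and overlapped the long frame by 4 nt. The long uORFs encoded the same residue at 46 of 52 positions (88.5%), against 8 to 21 of 25 among the 10 bZIP pairs.

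The uORFs differed in base composition. G and C made up 29.5% of the uORF of bZIP1 and 49.2% of that of bZIP2, the lowest and the highest of the 7. In bZIP1 the uORF had nearly the G and C content of its 5' UTR (29.7%), and in the other 6 it had more than its 5' UTR.

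To follow pairing along these mRNAs, the structure score of each base was averaged over regions. The score is a log ratio of double-stranded over single-stranded reads relative to the mean of the spliced transcript, so a positive score means more double-stranded than the rest of the same mRNA. The authors merged both replicates, which leaves 1 value per base and condition. No difference below has a replicate check, and a difference is called when it is at least 0.5 in size. Neighbouring bases share reads, and read depth is not given. Where reads are few, the log ratio moves in steps with each added read. Long runs of 1 score, as at 1.08 over much of the bZIP1 uORF in salt, thus rest on few reads. The number of distinct scores in a region shows how finely it was resolved.

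In salt-treated tissue the uORF had a higher mean score than in control-treated tissue in all 5 listed mRNAs, over the bases scored in both conditions. With the median over bases in place of the mean this held in 4 of 5, since bZIP2 then had −0.17. The difference of means was called in 4 of them, each higher in salt. Of 1011 genes with a uORF of at least 25 codons, 58.3% were called in either direction and 29.8% were called higher in salt. No other region of these mRNAs differed in the same direction in all 5, but several leader and spacer values rest on few bases. In SAMDC2 the leader had 5.75 over 17 of 273 bases and the spacer 3.05 over 13 of 118. The bZIP1 spacer had 10 bases with 3 distinct scores in each condition. The leader was called in 3 of 5, 2 of them lower, against 63.8% of 688 leaders of the same kind of gene, and the spacer in 3 of 5, 2 of them higher, against 61.2% of 1016. In that background the median uORF difference was 0.07, with quartiles of −0.61 and 0.71, and 52.6% of uORFs were higher in salt. With 5 mRNAs and 1 value per condition, these counts have no test.

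**Figure D1:**
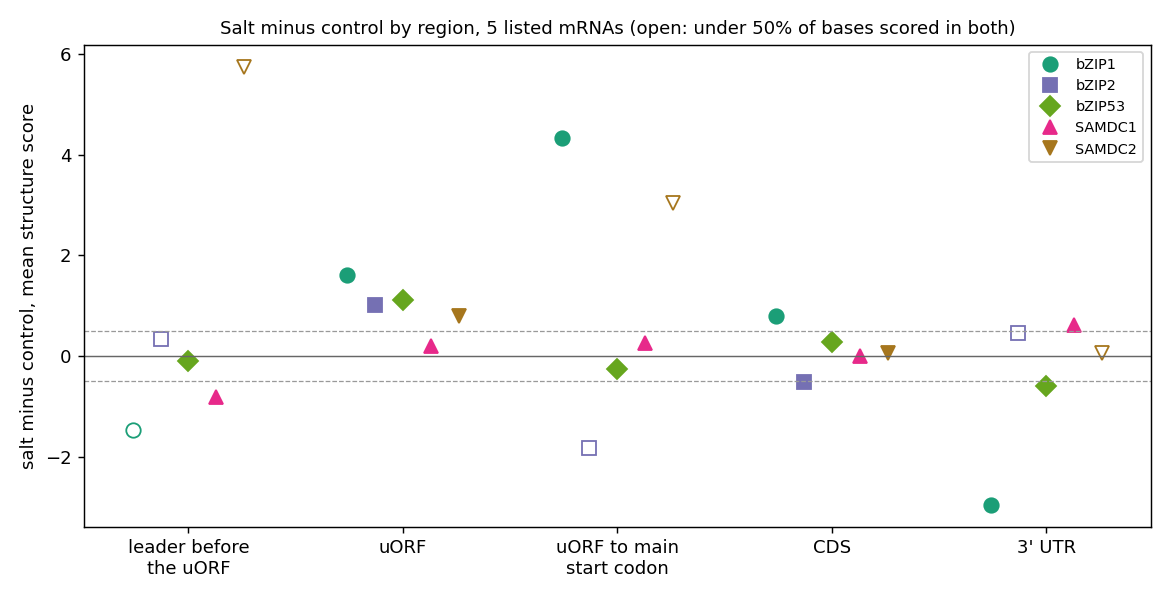
Mean structure score in salt-treated minus control-treated tissue (y axis) for 5 regions along the mRNA (x axis), 1 symbol per listed mRNA, with dashed lines at the call of 0.5 in size and open symbols where under 50% of bases were scored in both conditions. In the uORF all 5 symbols lie above 0, from 0.20 in SAMDC1 to 1.61 in bZIP1, whereas the other regions hold symbols on both sides.

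The uORF of bZIP1 had a mean score of −0.16 in control and of 1.46 in salt over 70 common bases, a difference of 1.61. It rested on only 6 and 5 distinct scores, and so on few reads. bZIP1 is a transcription factor of the low-energy response, and its uORF nearly abuts the main start codon. The spacer of 10 nt after it went from −1.59 to 2.74, and the leader before it went the other way, from 1.00 to −0.46 over 89 bases. In the last 30 nt of the uORF, printed above, the score was 0.36 in control and 2.08 in salt. From the uORF to the main start codon bZIP1 was thus more paired in salt relative to its own transcript, and upstream of it less.

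bZIP2 had a uORF score of −1.41 in control and −0.39 in salt over 89 common bases, a difference of 1.02, with 26 and 24 distinct scores. Over nt 201 to 263, the 5' part of the uORF, the means were −0.88 and −1.16, a difference of −0.28, with bases on both sides of it. Over nt 264 to 326 they were −2.69 in control and 1.70 in salt, where only 26 of 63 bases were scored in control. No base of the printed last 30 nt was scored in control, and their mean in salt was 1.60. The spacer of 113 nt was lower in salt, with a difference of −1.82 over 50 bases. It had only 5 distinct scores in control and 3 in salt.

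bZIP53, a partner of group C bZIP proteins, had the best resolved 5' UTR of the bZIP mRNAs, with 88.5% of its bases scored in both conditions. Its uORF was scored throughout and had a mean of 0.17 in control and 1.28 in salt, a difference of 1.11. It was higher in salt by 1.05 over nt 298 to 340 and by 1.16 over nt 341 to 384, and the printed last 30 nt by 1.83, from −0.35 to 1.48. The leader and the spacer of the same 5' UTR had differences of −0.09 and −0.26, neither of them called. In bZIP53 the difference of means was therefore largest in the uORF among the 3 segments of the 5' UTR. Rises and falls within the longer leader and spacer can cancel in such means. In windows of 30 nt the largest fall, −2.21 at nt 404 to 433, lay in the spacer. The largest rise, 2.10 at nt 360 to 389, ran over the end of the uORF.

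SAMDC1 was the most fully scored 5' UTR of the members, with 95.3% of bases in both conditions and 177 and 175 distinct scores. Its uORF differed least, with means of −0.37 and −0.17 and a difference of 0.20 that was not called. The leader of 301 nt, all of it scored, was lower in salt, from 0.19 to −0.62, a difference of −0.81. The junction of the tiny and the long frame, printed above, was below the transcript mean in both conditions, at −1.23 in control and −1.51 in salt. The last 30 nt of the long uORF were more paired than the transcript mean in both, at 0.73 and 1.06.

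SAMDC2 was thinly covered, and its values have little weight. Only 24.7% of its 5' UTR was scored in both conditions, with 15 and 10 distinct scores. Its uORF had means of −0.996 and −0.20 over 106 common bases, a difference of 0.80, but it went opposite ways along its length, with −1.89 over nt 274 to 352 and 2.07 over nt 353 to 432. The junction of both frames was at −4.38 in control and 1.06 in salt. That of SAMDC1, with both start codons at the same spacing, was at −1.23 and −1.51.

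**Figure D2:**
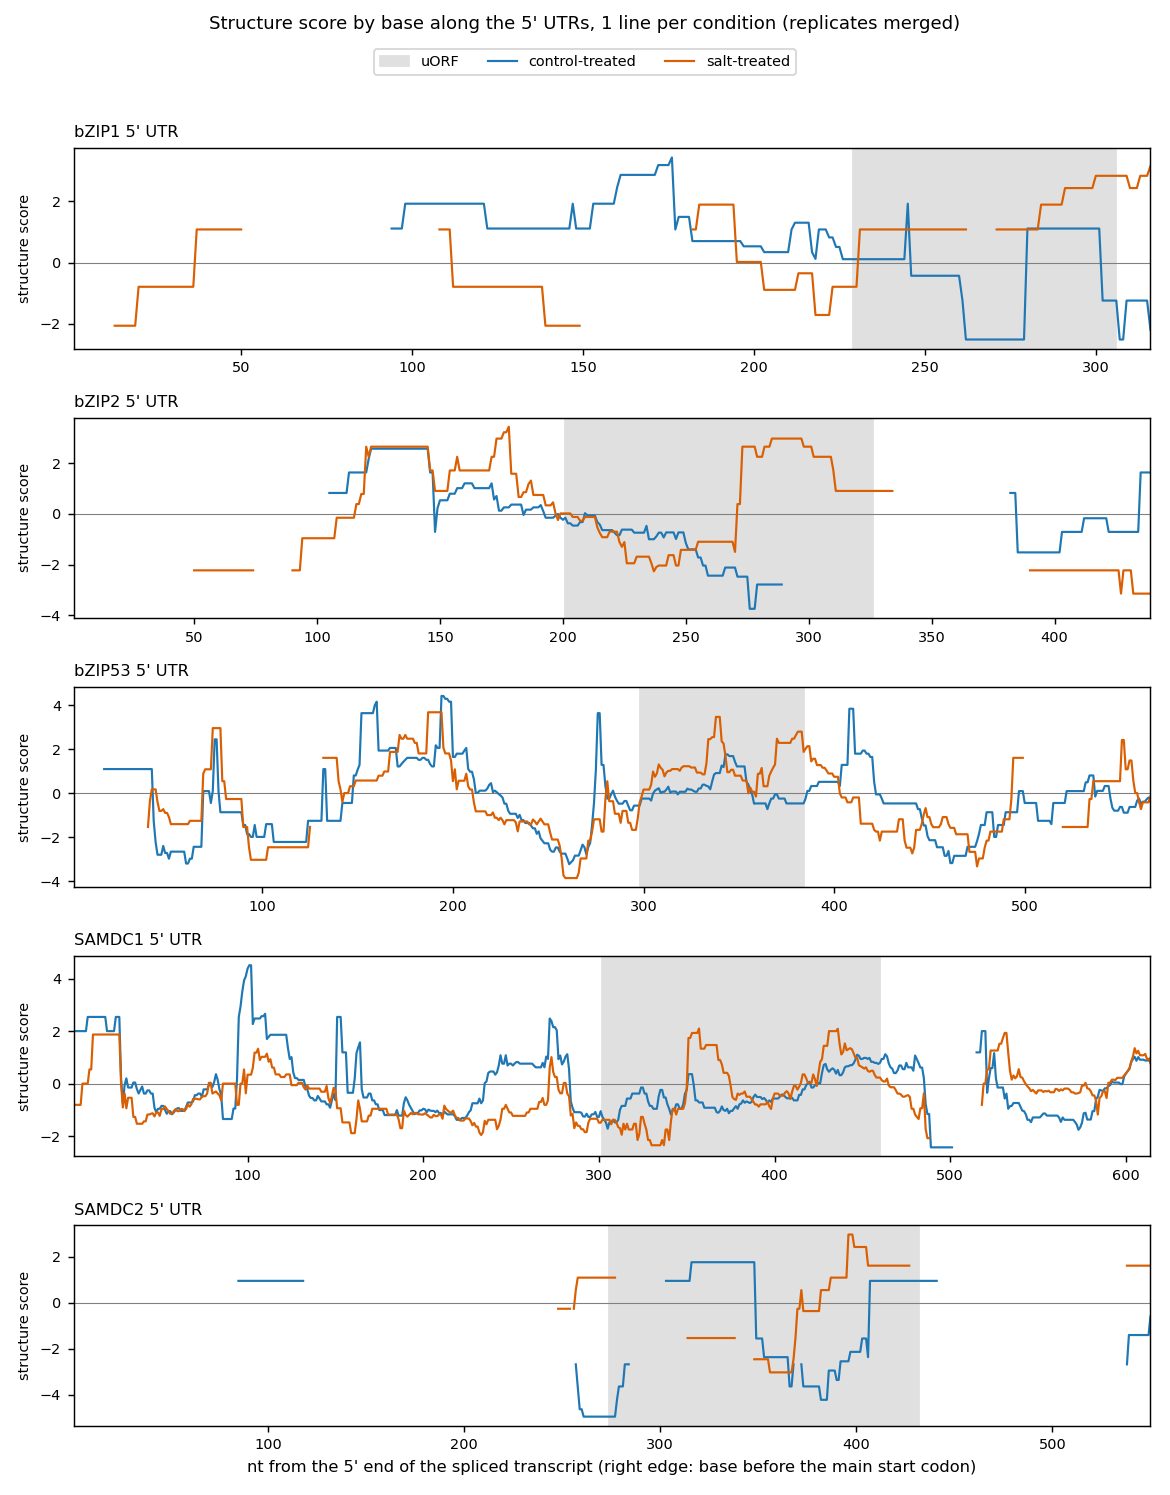
Structure score (y axis) of each scored base along the 5' UTR of the 5 listed mRNAs (x axis, nt from the 5' end of the spliced transcript), with control-treated in blue, salt-treated in orange, the uORF shaded, and gaps where no score was given. The lines of bZIP53 and SAMDC1 cover most of the 5' UTR and part in places, by up to −2.21 and −1.99 over 30 nt. Those of bZIP1 and SAMDC2 consist of a few flat steps.

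Averaged over the whole 5' UTR these differences largely cancelled in the bZIP mRNAs. The mean 5' UTR score was higher in salt by 0.16 in bZIP1, 0.14 in bZIP2 and 0.06 in bZIP53, and lower in SAMDC1 (−0.31), none of them called. SAMDC2 was higher by 1.63 and was the 1 member called of 5, against 61.5% of 9069 genes tested and 39.8% of the 1626 genes whose 5' UTR was 300 nt or longer. Over the longer 5' UTRs the median difference was 0.00, with quartiles of −0.37 and 0.39. When only 5' UTRs scored over at least 80% of their bases were kept, 0 of 2 members were called.

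Base by base, the 5' UTR scores of both conditions were positively related in the 2 mRNAs scored over most of the 5' UTR, with a Pearson's r over bases of 0.60 in bZIP53 over 501 bases and 0.44 in SAMDC1 over 585. In the less covered mRNAs r was 0.35 in bZIP2 over 235 bases, −0.44 in bZIP1 over 169 and −0.18 in SAMDC2 over 136. Within the uORF alone r was 0.26 in bZIP1, −0.64 in bZIP2, 0.07 in bZIP53, 0.52 in SAMDC1 and −0.07 in SAMDC2. These are descriptions of 1 value per base, and neighbouring bases are not independent.

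The uORF was also set against the rest of the same 5' UTR within each condition, over all bases scored in that condition. In control-treated tissue the uORF of bZIP1 was less paired than the rest by 1.58, and that of bZIP2 by 1.92. In salt-treated tissue both were more paired than the rest, by 1.64 and 0.49. The bZIP2 value used 126 uORF bases in salt against 89 in control. Over bases scored in both conditions, the bZIP2 uORF had −0.39 in salt, below the −0.04 of its whole 5' UTR. On like bases it was therefore less paired than the rest in both conditions. Over all bases scored in salt, bZIP2 was at −0.94 when the spacer was counted with the uORF, against the leader alone. With the median over bases its uORF was at 0.03. bZIP53 went from 0.55 above the rest to 1.87 above it, and SAMDC1 from 0.37 below to 0.26 above. SAMDC2 was the exception, with 0.08 above in control and 1.18 below in salt, over 38 bases outside the uORF. Its control value had no settled sign, with −0.15 when scores were limited to −3 to 3 and −0.22 in the other isoform. Over 987 genes with a uORF of at least 25 codons, the median of this contrast was 0.10 in control and 0.16 in salt, and the uORF was the more paired of the 2 parts in 54.1% and 56.9%.

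**Figure D3:**
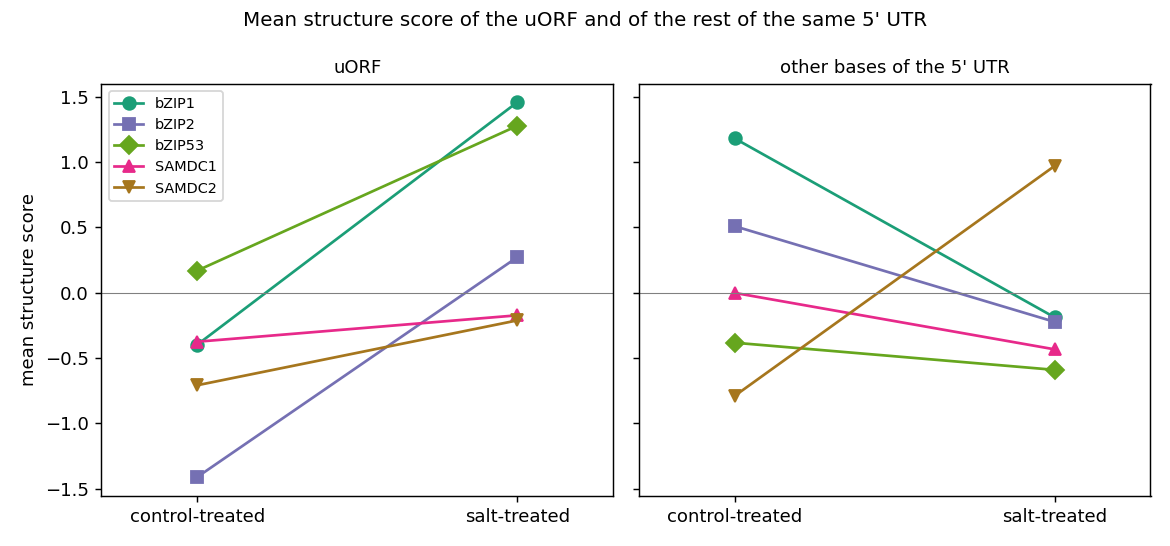
Mean structure score (y axis) of the uORF (left) and of all other bases of the same 5' UTR (right) in control-treated and salt-treated tissue (x axis), 1 line per listed mRNA. All 5 lines go up on the left, and on the right 4 go down and that of SAMDC2 goes up.

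Around the codons where a ribosome starts and stops, windows of 23 nt showed different profiles by mRNA. At the uORF stop codon bZIP1 went from −0.57 in control to 2.69 in salt, and bZIP53 from −0.12 to 2.06. SAMDC1 went from 0.82 to 0.24 there. At the uORF start codon the 3 bZIP mRNAs differed little, with −0.31 and −0.26 in bZIP53, −0.16 and 0.06 in bZIP2, and 0.33 and −0.06 in bZIP1. At the main start codon bZIP1 went from −1.48 to 2.86 and bZIP2 from 1.13 to −3.07, whereas bZIP53 had −0.38 and −0.17 and SAMDC1 0.98 and 0.84. The median over all genes at the main start codon was −0.17 in control and −0.13 in salt. The bZIP2 window there held only scores of −0.71 and 1.64 in control and of −2.23 and −3.15 in salt. In bZIP1 the windows at the uORF stop codon and the main start codon were also a few flat steps. These large differences of bZIP1 and bZIP2 thus rest on few reads.

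Over all genes, coding sequences were called far less often than UTRs, and 2 of the 5 members were called. The mean CDS score was higher in salt by 0.80 in bZIP1, 0.29 in bZIP53, 0.07 in SAMDC2 and 0.00 in SAMDC1, and lower in bZIP2 (−0.50). bZIP1 and bZIP2 were called, against 4.83% of 10003 genes, and both lay outside −0.32 and 0.42, the 5th and the 95th percentile of all genes. These shares cover CDSs of every length. None was computed for CDSs of like length to those of bZIP1 (438 nt) and bZIP2 (516 nt), so whether the members stand out was not tested. The call of bZIP2 was lost when scores were limited to the range from −3 to 3 (−0.45) and with the median over bases (−0.19). In bZIP1 81 to 96 distinct scores lay behind the CDS value, and in SAMDC1 196 to 251. The 3' UTR was lower in salt in bZIP1 (−2.95) and in bZIP53 (−0.60). It was higher by 0.62 in SAMDC1, by 0.46 in bZIP2 and by 0.06 in SAMDC2. The bZIP1 value rested on 95 of 153 bases, with 15 and 12 distinct scores. That of bZIP2 rested on 108 of 276 bases, with 10 and 12, and that of SAMDC2 on 44 of 242, with 7 and 6. In SAMDC1 the 3' UTR value was 0.28 in the other listed isoform, whose 3' UTR is shorter, and was not called there. The calls of the 3' UTR, 3 of 5, stood beside 58.0% of 9486 genes.

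Protein protected sites (PPSs) are stretches where the library with bound proteins exceeded the library without them, and 1 list was deposited per replicate. The lists share many calls of identical position and score, so they are not independent measurements. The control-treated lists had 15442 such calls in common. Salt-treated replicate 2 shared 15189 with salt-treated replicate 1, 10095 with control-treated replicate 1 and 3958 with control-treated replicate 2, and every one of them was listed on the opposite strand. Of those shared with control-treated replicate 1, 3380 also carried the other RNase. The strand of a PPS and a difference between conditions that rests on strand were therefore not read from these lists. With 2 lists per condition, no two-sided exact permutation test can go below p = 0.33.

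PPSs over the 7 members were found in 4 genes, bZIP1, bZIP2, bZIP53 and SAMDC1, on either strand. bZIP11, bZIP44 and SAMDC2 had none in any list, as did 65.6% of 27444 protein-coding genes and 33.3% of the 10506 protein-coding genes that were in the structure tables. Only bZIP1 had a PPS in all 4 lists, which 10.7% of all protein-coding genes and 21.4% of those in the structure tables had. The number of members with a PPS was 4 of 7 in the first control-treated list and 3 of 7 in the second, against 26.1% and 23.6% of genes. It was 3 and 2 of 7 in the salt-treated lists, against 26.9% and 20.9%. The lists held 44 PPSs over the members, made of 23 distinct calls, of which 12 appeared on both strands in different lists.

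**Figure D4:**
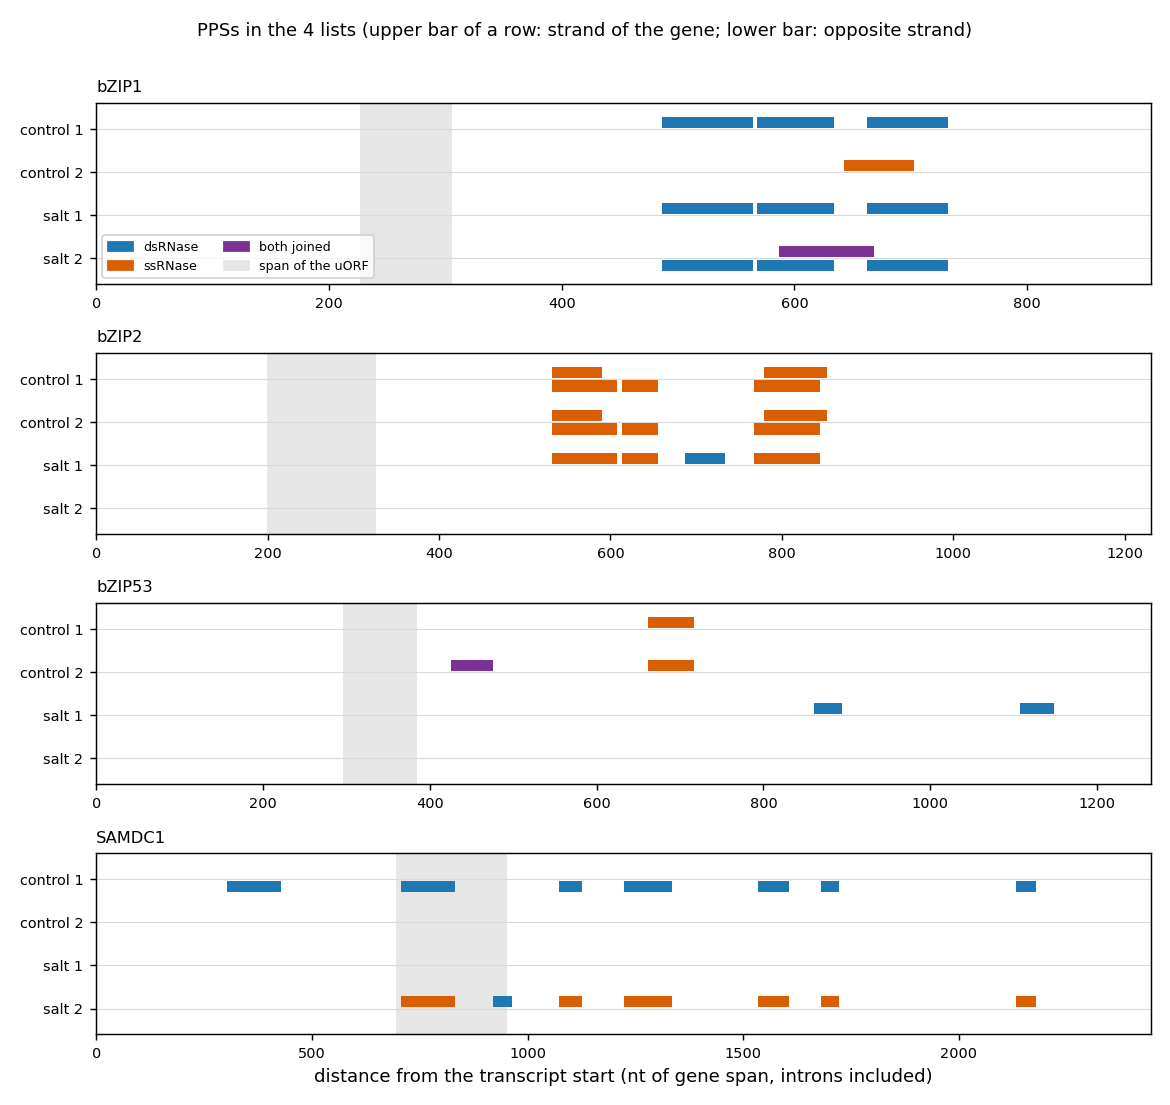
PPSs over the 4 members that had any, by distance from the transcript start in nt with introns included (x axis) and by list (rows), with the strand of the gene as the upper bar of a row and the opposite strand as the lower, colours for the RNase, and the span of the uORF in grey. Bars at the same places recur across rows on opposite strands, and only SAMDC1 has bars over the uORF.

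The sites lay mainly in coding sequence, as they did in other genes. Of the 23 distinct calls, 17 were wholly in the CDS, 4 touched the spliced 5' UTR, 1 was in a 3' UTR and 1 was in an intron. Over the other coding genes of the structure tables, 36472 of 55257 distinct calls were wholly in the CDS. In bZIP1 all 5 calls were in the CDS. There, 3 dsRNase calls at nt 487 to 564, 569 to 634 and 663 to 732 of the spliced mRNA, with scores of 8.14, 6.81 and 15.9, were identical in control-treated replicate 1, salt-treated replicate 1 and, on the opposite strand, salt-treated replicate 2. The 1 call of control-treated replicate 2 was an ssRNase site at nt 644 to 703. In bZIP2 all 6 calls were in the CDS as well. The control-treated lists held the same 5 ssRNase sites, salt-treated replicate 1 held 3 of them on the opposite strand and a dsRNase site of its own, and salt-treated replicate 2 held none.

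Sites in the 5' UTR were found in bZIP53 and SAMDC1. In bZIP53 a joined dsRNase and ssRNase site at nt 426 to 476, in the spacer after the uORF, was in control-treated replicate 2 and no other list. Salt-treated replicate 1 had 2 dsRNase sites of bZIP53, in the CDS and the 3' UTR, and salt-treated replicate 2 had none. SAMDC1 had 7 PPSs in control-treated replicate 1 and 7 in salt-treated replicate 2, and 0 in each of the other lists. A site of 124 nt with a score of 11.03 covered nt 311 to 434, inside the long uORF, and a site at nt 583 to 634 with a score of 7.27 spanned the main start codon. Both were in both of these lists at the same position and score, as were 6 of the 7 sites, but in control-treated replicate 1 on the strand opposite the gene as dsRNase sites and in salt-treated replicate 2 on the strand of the gene as ssRNase sites. The highest score of the members, 19.36, belonged to a CDS site of SAMDC1 at nt 1043 to 1113 with the same exchange. A dsRNase site at the end of the SAMDC1 uORF, with a score of 5.86, was only in salt-treated replicate 2. On the strand of the gene alone, the mean number of PPSs over the members was 5.5 per control-treated and 8.5 per salt-treated list, in place of 12 and 10, so that the order of the conditions turned.

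Other mRNAs known for uORFs gave a background for the members. In a list of 9 such genes, 7 were in the structure tables, and 6 could be tested over the whole 5' UTR. Of these, 1 was called, higher in salt, where 31.3% of all genes tested were called higher and 30.1% lower, and the median difference was 0.30, against 0.02 over all genes. The called gene was XPL1, which encodes a phosphoethanolamine N-methyltransferase of choline synthesis, with 2.35 over the 5' UTR. SAC51, a suppressor of the thermospermine-deficient acaulis5 mutant, had 0.34, VTC2 of vitamin C synthesis 0.34, AT1G29950 0.25, AT5G09460 0.12, and the heat shock factor gene HSF4 −0.16. Their longest ATG uORF was higher in salt in 5 of 6, with 2.41 in XPL1, 1.21 in AT1G29950, 0.36 in AT5G09460, 0.33 in HSF4 and 0.23 in SAC51. Of the 6, 2 were called higher and 0 lower. Over the 1011 genes with a uORF of at least 25 codons, 52.6% were higher in salt and 29.8% were called higher. VTC2 had −0.35, over an ATG frame of 10 codons that need not be its known uORF. Frames that open with another codon were not searched for.

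The partners and targets of the S1 bZIP proteins were measured in part. Of 4 group C partners, 2 were in the structure tables and 1 was tested and not called. BZO2H1, a group C bZIP, had PPSs in all lists, with 7 and 3 in the control-treated and 5 and 8 in the salt-treated replicates. Of 5 genes that S1 bZIPs act on or with, 2 were called higher and 1 lower in the 5' UTR. Of all 9069 genes tested, 31.3% were called higher and 30.1% lower. ASN1, an asparagine synthetase gene and S1 bZIP target, was higher by 0.75 and had 13, 8, 18 and 6 PPSs in the same order of lists. The SnRK1 kinase subunit genes KIN11 and KIN10 went in opposite directions, with 0.71 and −0.72. KIN10 had 8, 9, 9 and 6 PPSs. BCAT-2, a branched-chain aminotransferase gene, had 7, 1, 5 and 7 PPSs and was not called, with 0.23. Of these genes, 2 had a longest ATG uORF with at least 10 bases scored in both conditions, and 0 of the 2 were higher in salt. BCAT-2 had −0.40 over 90 bases of a frame of 29 codons, and KIN11 −0.90 over 11 bases of a frame of 3. For comparison, 10.7% of all protein-coding genes and 21.4% of those in the structure tables had a PPS in all 4 lists.

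Genes around SAMDC were mixed. The counts of called 5' UTRs below stand beside 61.5% of 9069 genes, 31.3% higher and 30.1% lower. Those of PPSs in all 4 lists stand beside 21.4% of protein-coding genes in the structure tables. Of 10 polyamine synthesis genes, 5 were tested, 2 were called higher and 1 lower. The spermidine synthase genes SPDS2 and SPDS3 were higher in salt by 0.71 and 0.66. EMB1873, which encodes agmatine iminohydrolase, had −1.19 over 10 bases, called lower. ADC2, an arginine decarboxylase gene, had −0.43 in control and −0.39 in salt and held 14, 5, 17 and 9 PPSs. Of 4 genes for S-adenosylmethionine synthetases, which make the substrate of SAMDC, SAM-2 was called, higher by 1.02, and MTO3 had 6, 6, 6 and 2 PPSs. Of 5 polyamine oxidase genes, 1 was called, PAO5, with −3.46 over 18 bases, and the median of the 5 was −0.10. PAO2, PAO3 and PAO4 had PPSs in all lists, with 26, 14, 14 and 23 in PAO2, 15, 12, 16 and 9 in PAO3 and 7, 5, 2 and 2 in PAO4. These 3 mRNAs themselves held uORFs of 55, 68 and 50 codons, which differed by −0.30, 0.13 and 0.36 between conditions. The leaf markers RBCS1A, CAB1, RCA and CA1 were all called lower in salt in the 5' UTR, with a median of −0.85. Their part in the values of the members was not tested.

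Among 9299 genes scored in all regions, those with the pattern most like the median of the listed bZIP mRNAs, over 6 values (5' UTR, CDS and 3' UTR in both conditions), were AT5G01800, AT4G15470 and DRIP1, at Euclidean distances of 0.37, 0.38 and 0.39. The median distance over all genes was 1.72. For the SAMDC mRNAs they were AT1G61730, MAP70-4 and POL, at 0.19, 0.24 and 0.29, against a median of 2.03. Each of the 6 values was a median of its own, so the patterns join values of different mRNAs. The bZIP 3' UTR values, for example, were 0.26 of bZIP53 in control and −0.71 of bZIP2 in salt. SAMDC2, in the SAMDC pattern, was thinly covered. Nearness to these patterns is therefore not likeness to a given member.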

How the data were processed

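PIP-seq libraries were grouped by their labels into control-treated and salt-treated, 4 libraries for each of 2 replicates per condition and 16 in all. Per the labels, reads were trimmed with cutadapt 1.2.1 and mapped to TAIR10 with TopHat2 2.0.10. The authors called PPSs per replicate with a modified CSAR package, and the deposited enrichment score of each PPS was used as given. The authors also deposited a structure score per base, a generalized log ratio of dsRNA-seq over ssRNA-seq with both replicates merged. It was standardized by coverage and centred on the spliced transcript, so no level of expression can be read from it. Depth is not given, though flat runs of few distinct scores mark stretches with few reads.

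From these, regional means were computed with Python 3.11.15 and numpy 2.4.6, and differences used bases scored in both conditions, at least 10 for background genes. The isoform with the longest 5' UTR was used. Main reading frames of all 10003 coding genes began with ATG and ended with a stop codon on TAIR10.1, the RefSeq assembly from which sequences were read. bZIP11 and bZIP44 transcripts came from RefSeq. The annotation lists no uORF as a gene of its own, so uORFs were found in the sequence as the longest upstream ATG frame. Named genes were the members, pathway genes past the call or with PPSs in all lists, the extremes of the uORF list, and nearest patterns. Members and lists were chosen with earlier results of these data known. The steps were tested on simulated data with independent bases, which leave out the shared reads and low depth of these scores. lncRNA tables were not used. Alternatives covered scores of 0, extreme scores, medians, isoforms, thresholds, bases under PPSs, and the strand, length, score and replicates of PPSs.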

Additional observations from a re-analysis of the deposited data

How the results depend on the processing

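The salt minus control difference of the uORF kept its direction and its side of 0.5 in bZIP1, bZIP53, SAMDC1 and SAMDC2 under every alternative run, and in SAMDC1 it went from 0.20 to 0.46 without bases under a PPS. In bZIP2 the median over bases gave −0.17. The median also turned the control score of the SAMDC2 uORF to 0.95. The whole 5' UTR differences kept their side of 0.5 for all 5 mRNAs. Calling at 0.25 gave 2 members, and requiring 80% of bases scored gave 0.

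With the uORF and the spacer together set against the leader, the contrast within the 5' UTR was −0.94 in bZIP2 in salt, opposite in sign to that of the uORF alone, 0.028 in control and 0.48 in salt in bZIP53, and −0.58 in control and 0.53 in salt in SAMDC1. With all uORFs against the rest, an alternative chosen after seeing the data, it was 0.65 in bZIP2 in salt, 0.49 in bZIP53 in control and −0.92 in SAMDC2 in control, and in salt it went from 1.64 to 0.81 in bZIP1 and from 0.26 to 0.025 in SAMDC1. The cause of these shifts was not tested.

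The mean number of PPSs per list over the members was 12 in control and 10 in salt. It was 5.5 in control and 8.5 in salt on the strand of the gene, the opposite order, and 4 and 3.5 among PPSs that scored over the median of their own list. It ranged from 8 to 16 in control and from 9 to 11 in salt with 1 replicate left out. Identical calls counted once left 18 of 24 and 17 of 20. No paired analysis was possible because the structure scores have 1 value per condition and no result comes from a test. Bases without a score and few distinct scores limit bZIP1 and SAMDC2 most.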
